A study of Mus musculus with 14 samples.

Results

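Cdkn1a, Gadd45b, Plk3, Csrnp1, Btg2 and Ier5l are 6 genes of growth arrest and of the response to stress. They were listed as a set from earlier results on these libraries, in which their transcripts were abundant in natural killer (NK) cells taken from tumours. They were chosen by their NK counts in the comparisons of tumours with spleens, so those values are a description here and carry no test. All 6 had a row among the 10210 genes of the NK count table and among the 12235 genes of the stromal count table, of 13230 genes in either.

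The libraries are bulk 3′ end RNA-seq of sorted cells of BALB/c mice, 8 weeks old; the sex of the healthy mice is not given in the sources used here. NK cells, lymphocytes that kill stressed or transformed cells, came from 3 sources: spleens of healthy mice without a tumour (3 libraries), spleens of mice that carried a 4T1-GFP tumour (4 libraries) and the tumours (4 libraries). The tumour-bearing mice were females given 100000 4T1-GFP cells in a mammary fat pad, where 4T1 is a mouse mammary carcinoma line and GFP its fluorescent tag. NK cells of all 3 groups were enriched magnetically and sorted for CD45 and NKp46, with cells that carried CD14, CD31, CD3, EPCAM or GFP gated out. A further 3 libraries held sCAFs, cancer-associated fibroblasts of 4T1-GFP tumours from which cells with PDPN, CD31, CD45, GFP or EPCAM had been gated out. Tumours were digested with collagenase A and DNase for 20 min at 37 °C, whereas spleens were crushed and cleared of red cells on ice. Tumour and enzymatic digestion therefore cannot be told apart in any comparison with a spleen. The series describes the libraries of a group as independent replicates without saying that each came from its own mouse, and the p-values below measure the spread between these libraries.

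Cdkn1a encodes p21, which binds cyclin-CDK complexes and halts the cell cycle before DNA replication. It is the best known target of the p53 protein and is also induced without p53, for example by TGF-beta. Gadd45b binds kinases that feed the p38 and JNK pathways, and Plk3 is a Polo-like kinase linked to DNA damage and other stress. Csrnp1 is a nuclear protein that activates transcription in reporter assays, Btg2 ties mRNAs to the CCR4-NOT deadenylase and slows proliferation, and Ier5l is a relative of the immediate early gene Ier5. Several of the 6 are rapid-response genes, whose transcripts appear soon after a stimulus and decay quickly.

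Library totals ran from 559688 to 1966963 counts in the NK table and from 1318067 to 2230475 counts in the sCAF table. Levels in NK libraries are CPM (counts scaled to a common library size) with TMM scaling. A count of 0 allows up to 3 counts, worth 1.53 to 5.36 CPM depending on the depth of the NK library and 1.35 to 2.28 CPM for sCAFs, counting error only. Pairs of libraries of 1 NK group correlated at r from 0.916 to 0.978 over the 8471 genes tested, so no pair looked like a library deposited again.

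NK markers were abundant in every NK library, though their levels differed between tumours and spleens. Marker levels in this paragraph are CPM on library totals, without TMM scaling. All 12 NK markers were listed, and their summed level was 32870 to 35600 CPM in healthy spleens, 32090 to 35090 CPM in tumour-bearing spleens and 23890 to 27980 CPM in tumours. Gzma was the largest part of each sum. Ncr1, Klrb1c, Nkg7, Prf1, Gzma and Tbx21 were lower in every tumour library than in any spleen library. Gzmb went the other way (1747 to 2149 CPM in tumours, at most 1236 CPM in spleens). Klrk1, Klrd1, Eomes, Il2rb and Tyrobp overlapped between tumours and spleens. Summed neutrophil, macrophage and epithelial markers were higher in every tumour library than in any spleen library. So were Pecam1 and the fibroblast sum, which was mostly Thy1. Not every gene on these lists followed its sum. Col3a1 was highest in healthy replicate 2 (9.58 CPM, tumours 0 to 8.37 CPM). Sparc was highest in healthy replicate 1 (8.93 CPM, tumours 0.544 to 8.37 CPM). Ngp was highest in tumour-bearing spleen replicate 3 (3.05 CPM, tumours at most 0.871 CPM). T cell markers (3 of 9 with a row) summed to 59.2 to 98.1 CPM in tumours, 105.7 to 143.8 CPM in tumour-bearing spleens and 50.03 to 79.3 CPM in healthy spleens. Dendritic cell markers (2 of 8, of which NK cells also express Itgax) summed to 173 to 224 CPM, 250.2 to 319.8 CPM and 171 to 178 CPM in the same order, most of it Itgax. Zbtb46, the other of these 2, was higher in every tumour library (11.3 to 21.3 CPM) than in any spleen library (at most 5.44 CPM). Cd79b, the 1 of 8 B cell markers with a row, was at 1.40 to 3.48 CPM, 4.16 to 6.21 CPM and 3.38 to 10.7 CPM in the order of the T cell markers. The 5 of 10 neutrophil markers with a row (led by S100a8 and S100a9) summed to 56.6 to 153 CPM in tumours and to at most 14.3 CPM in spleens, where Retnlg was at 0. The 8 of 12 macrophage markers with a row summed to 40.9 to 234 CPM in tumours and to at most 28.5 CPM in spleens, where Csf1r was at 0; the tumour maximum was replicate 3, with Apoe at 95.2 CPM. Epcam and Cdh1, the 2 of 8 epithelial markers with a row, summed to 25.0 to 51.0 CPM in tumours, most of it Cdh1, and to at most 3.57 CPM in spleens. The part of these cells in the levels below was not tested. With tumour replicate 3 left out, the log2 fold changes of the 6 genes from tumour-bearing spleens to tumours were 4.21 for Cdkn1a, 3.92 for Gadd45b, 1.74 for Plk3, 3.43 for Csrnp1, 1.26 for Btg2 and 4.59 for Ier5l. These values do not show the part of other cells. The remaining tumour libraries were also above every spleen library in the neutrophil, macrophage and epithelial sums. S100a9 was highest in tumour replicate 2 (108 CPM), and Cdh1 was lowest in tumour replicate 3 (23.9 CPM).

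The 6 genes sit on 6 chromosomes of the mm10 build (GENCODE M21 annotation of GRCm38). Cdkn1a is at chr17:29090976-29100727 on the plus strand, and Gadd45b is at chr10:80930073-80932204 on the plus strand. Plk3 is at chr4:117128655-117133963, Csrnp1 at chr9:119971163-119984658, Btg2 at chr1:134075170-134079120 and Ier5l at chr2:30471537-30474219, all 4 on the minus strand. The sources used here do not say whether counting used strand. Cdkn1a shares 273 exonic bases with an antisense transcript, Csrnp1 shares 224 with another, and Plk3 shares 84 with Tctex1d4, which runs the other way and had 0 to 9 counts in the NK libraries. Cx3cr1, a chemokine receptor gene whose locus overlaps Csrnp1 on the same strand without sharing an exonic base, moved the opposite way, with a log2 fold change of -2.37 from tumour-bearing spleens to tumours (edgeR adjusted p = 3.45e-08).

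RefSeq start regions of all 6 genes (GRCm38.p6, 10 windows of 250 bases before to 50 bases after a start) were searched on both strands for 7 motifs written down after the windows had been seen. These were AP-1 (TGANTCA), CRE (TGACGTCA), the E-box (CACGTG), the CCAAT box (CCAAT), a p53 site at most 1 base off its consensus, the CArG box and the NF-kB site. The 3 stretches below, from before a start, are shown as examples of a p53 site, a CRE and AP-1 motifs, with matches in capitals: the p53 site of Cdkn1a (chr17:29090729-29090978, plus strand), the CRE and 2 CCAAT boxes of Btg2 (chr1:134079156-134079405, minus strand), and 2 AP-1 motifs and a reverse CCAAT box of the fourth window of Csrnp1 (chr9:119983024-119983273, minus strand), each read 5′ to 3′ along its gene.
Cdkn1a: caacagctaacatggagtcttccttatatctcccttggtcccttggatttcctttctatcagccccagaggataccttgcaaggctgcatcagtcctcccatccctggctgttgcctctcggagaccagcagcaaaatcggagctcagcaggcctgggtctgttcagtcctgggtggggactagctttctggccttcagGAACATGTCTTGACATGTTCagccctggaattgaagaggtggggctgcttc
Btg2: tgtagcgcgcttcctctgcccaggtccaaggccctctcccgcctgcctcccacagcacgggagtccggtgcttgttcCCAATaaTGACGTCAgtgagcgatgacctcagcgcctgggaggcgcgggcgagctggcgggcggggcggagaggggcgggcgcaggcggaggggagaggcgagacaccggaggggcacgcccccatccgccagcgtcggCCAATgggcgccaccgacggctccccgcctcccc
Csrnp1: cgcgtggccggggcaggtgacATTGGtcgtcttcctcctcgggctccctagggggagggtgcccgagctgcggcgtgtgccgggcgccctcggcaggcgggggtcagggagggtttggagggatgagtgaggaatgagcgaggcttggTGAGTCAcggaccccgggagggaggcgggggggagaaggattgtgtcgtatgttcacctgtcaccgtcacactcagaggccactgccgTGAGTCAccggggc
The p53 site of Cdkn1a spans bases -51 to -32 from the start of its first window, and 29 of 32851 RefSeq windows of the same length (0.0883%) held such a match. The second Cdkn1a window, at chr17:29093519-29093818 around a start further downstream, held none of the 7 motifs. Windows 1 to 3 of Csrnp1 held none either. Which start the transcripts of a gene used was not tested. The CRE of Btg2 lies at -166 to -159, and 1.79% of windows held one. The AP-1 motifs of Csrnp1 lie at -102 to -96 and -14 to -8, and 7.81% of windows held at least 1. Gadd45b had an E-box at -185 to -180 (7.15% of windows) and 2 CCAAT boxes (37.4% of windows), Ier5l had 2 CCAAT boxes, and the Plk3 window held none of the 7. The CArG box (1.63% of windows) and the NF-kB site (8.46%) matched in none of the 10 windows. No motif was common to all 6 genes.

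All 6 transcripts were more abundant in every tumour NK library than in any spleen NK library. The log2 fold changes from tumour-bearing spleens to tumours ran from 1.21 for Btg2 to 4.72 for Ier5l, and those from healthy spleens to tumours from 1.25 for Btg2 to 4.66 for Ier5l. Plk3 stood apart from the other genes of the 6 in the spleens, where it was higher in tumour-bearing than in healthy mice. Bulk libraries cannot tell more cells that carry a transcript from more transcript per cell.

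Cdkn1a, the inhibitor of CDKs, was at 24.7, 25.7 and 18.98 CPM in healthy spleens, at 23.6, 28.5, 27.8 and 25.3 CPM in tumour-bearing spleens and at 449, 582.5, 434 and 453 CPM in tumours. The spleen groups overlapped and lay far under the tumours, of which replicate 2 was the highest. Group means were 23.1 ± 3.61 (SD, n = 3), 26.3 ± 2.24 (SD, n = 4) and 479.6 ± 69.1 CPM (SD, n = 4). The log2 fold change was 4.17 (SE 0.154) from tumour-bearing spleens to tumours and 4.36 (SE 0.183) from healthy spleens to tumours.

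Plk3, the stress-linked Polo-like kinase, was at 9.25, 8.03 and 9.08 CPM in healthy spleens, at 41.2, 30.7, 29.3 and 36.2 CPM in tumour-bearing spleens and at 107, 119, 115 and 119.8 CPM in tumours. It formed 3 separate levels with no overlap between any groups. The healthy values rest on 6 to 15 counts per library. Means were 8.78 ± 0.662 (SD, n = 3), 34.3 ± 5.42 (SD, n = 4) and 115 ± 6.02 CPM (SD, n = 4), so the tumour libraries spread little around their mean. The step from healthy to tumour-bearing spleens had a log2 fold change of 1.97 (SE 0.228), and the step from there to tumours one of 1.75 (SE 0.151).

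Gadd45b, the partner of stress-kinase cascades, was at 44.7, 51.4 and 56.1 CPM in healthy spleens, at 64.8, 60.3, 74.1 and 47.0 CPM in tumour-bearing spleens and at 954, 1058, 753 and 818 CPM in tumours. Tumour-bearing replicate 4 fell among the healthy libraries, so the spleen groups overlapped. Means were 50.7 ± 5.74 (SD, n = 3), 61.6 ± 11.3 (SD, n = 4) and 896 ± 137 CPM (SD, n = 4). The log2 fold changes to tumours were 3.85 (SE 0.166) from tumour-bearing and 4.12 (SE 0.195) from healthy spleens.

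Csrnp1, the nuclear transcription activator, was at 30.8, 39.6 and 40.4 CPM in healthy spleens, at 41.9, 45.8, 70.5 and 47.7 CPM in tumour-bearing spleens and at 603, 503, 576 and 589.5 CPM in tumours. The spleen groups did not overlap, but only 41.9 against 40.4 CPM separated them, and tumour-bearing replicate 3 was well above the other 3. Means were 37.0 ± 5.33 (SD, n = 3), 51.5 ± 12.9 (SD, n = 4) and 567.9 ± 44.8 CPM (SD, n = 4). The log2 fold change was 3.45 (SE 0.163) from tumour-bearing spleens to tumours, 3.91 (SE 0.194) from healthy spleens to tumours and 0.46 (SE 0.194) between the spleen groups.

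Btg2, the antiproliferative deadenylase adaptor, was at 248, 355 and 318 CPM in healthy spleens, at 275, 342, 346 and 302 CPM in tumour-bearing spleens and at 800.1, 665, 637 and 829.1 CPM in tumours. The spleen groups covered the same range, and the lowest tumour library was above the highest spleen library. Means were 307 ± 54.2 (SD, n = 3), 316 ± 33.7 (SD, n = 4) and 733 ± 95.9 CPM (SD, n = 4). Its log2 fold changes, 1.21 (SE 0.145) and 1.25 (SE 0.161) from tumour-bearing and healthy spleens to tumours, were the smallest of the 6.

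Ier5l, the relative of Ier5, was at 6.16, 9.63 and 4.13 CPM in healthy spleens, at 7.62, 6.70, 9.27 and 2.89 CPM in tumour-bearing spleens and at 161, 154, 221 and 186 CPM in tumours. The spleen values rest on only 4 to 18 counts per library and overlapped fully, whereas each tumour library had at least 106 counts. Means were 6.64 ± 2.78 (SD, n = 3), 6.62 ± 2.70 (SD, n = 4) and 180.3 ± 30.4 CPM (SD, n = 4). The log2 fold change was 4.72 (SE 0.241) from tumour-bearing and 4.66 (SE 0.284) from healthy spleens, each with the widest error of the 6. Leaving out healthy replicate 2, which holds 18 of the healthy counts, gave 5.19 from healthy spleens.

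**Figure D1:**
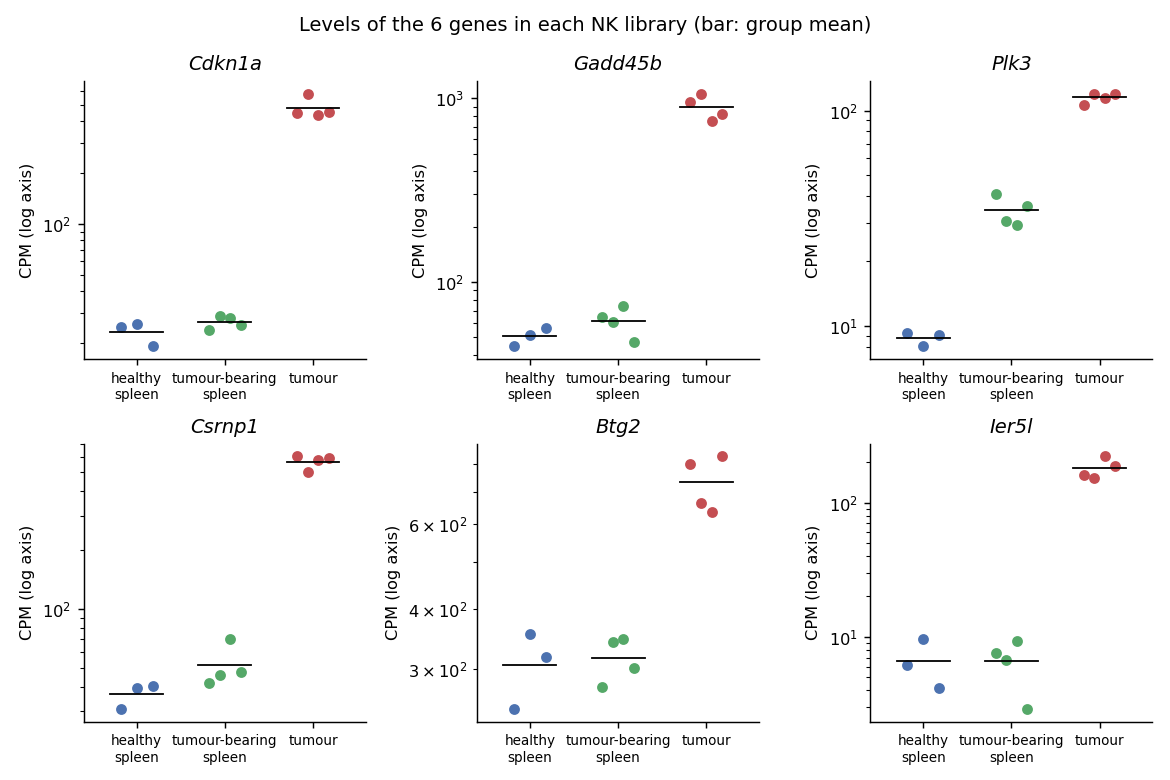
Level of each gene in every NK library, in CPM on a log axis (points: libraries, coloured by group; bar: group mean). For each gene the 4 tumour libraries sit above all 7 spleen libraries, and Plk3 has 3 separate levels, with means of 8.78, 34.3 and 115 CPM; the spleen groups of Csrnp1 are also separate, by a narrow gap.

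Libraries of tumours and tumour-bearing spleens did not overlap for 6 of the 6 genes, beside 29.7% of all 8471 genes without overlap in either direction and 16.5% that were higher. The test called 6 of 6 higher, beside 29% of all genes called, 15.8% higher and 13.2% lower. From healthy spleens to tumours 6 of 6 were separate (34.8% of genes, 18.5% higher) and 6 of 6 were called higher (30.5% of genes, 16.5% higher and 14% lower). Between the spleen groups Plk3 and Csrnp1 were separate (12.2% of genes, 6.52% higher) and Plk3 was called higher (1.58% of genes, 1.23% higher and 0.354% lower). At an unadjusted p under 0.05 the shares of all genes were 39.4%, 41% and 11.2% in these 3 comparisons. These contrasts chose the genes, so nothing is read from the counts. The median log2 fold change of the 6 was 3.65 from tumour-bearing spleens to tumours, 4.02 from healthy spleens to tumours and 0.23 between the spleen groups, beside medians of 0.001, 0.016 and -0.004 over all genes tested. The comparisons with tumours share the 4 tumour libraries, so they are not independent of each other.

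The 7 spleen libraries fall on 2 sides in an earlier analysis of these data, with tumour-bearing replicates 1 and 2 and healthy replicate 1 on 1 side. Cdkn1b, which encodes the CDK inhibitor p27, followed that split, at 46.9 to 64.7 CPM on that side and 9.27 to 15.7 CPM on the other. None of the 6 genes did with both spleen groups pooled: Cdkn1a, for example, was at 23.6 to 28.5 CPM on that side and 18.98 to 27.8 CPM on the other. Within each spleen group, however, Csrnp1 was lower on that side. It was at 41.9 and 45.8 against 70.5 and 47.7 CPM in tumour-bearing mice, and at 30.8 against 39.6 and 40.4 CPM in healthy mice. Over all alternatives its log2 fold change from tumour-bearing spleens to tumours was 3.208 to 3.685. Against only the 2 tumour-bearing libraries of that side the median log2 fold change of the 6 genes was 3.76, and against only the other 2 it was 3.52.

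Relatives of the 6 genes were mixed. Of 39 genes on the lists of their 6 families and partners, 29 could be tested, and from tumour-bearing spleens to tumours 12 rose, 2 fell and 15 did not pass the test, with a median log2 fold change of 0.54. Over all genes 15.8% rose and 13.2% fell. The risers were spread over the GADD45, CSRNP, BTG/Tob and IER lists, and no other CDK inhibitor or Polo-like kinase was among them.

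The other CDK inhibitors gave 0 calls of 3 in edgeR, with 0 at an unadjusted p under 0.05 and 0 in DESeq2. Cdkn1b stood at 57.7 ± 9.35 CPM in tumours (SD, n = 4) and 31.0 ± 23.7 CPM in tumour-bearing spleens (SD, n = 4), a log2 fold change of 0.92 (edgeR adjusted p = 0.318). That spleen mean runs across the split described above. Tumour-bearing replicates 1 and 2 were at 55.6 and 46.9 CPM, close to or within the tumour range of 47.6 to 67.3 CPM. Replicates 3 and 4 were at 9.27 and 12.3 CPM, under every tumour library. The missing call is therefore not a sign that Cdkn1b was unchanged. Cdkn2c and Cdkn2d, inhibitors of CDK4 and CDK6, had log2 fold changes of 0.66 and -0.25 (edgeR adjusted p = 0.139 and 0.254). Against healthy spleens Cdkn2d was lower in tumours, by a log2 fold change of -0.58 (edgeR adjusted p = 0.0134), a call lost in 2 of 20 alternatives, 1 of which left out healthy replicate 2 (adjusted p from 0.00196 to 0.237 over all 20). Cdkn1c, Cdkn2a and Cdkn2b were not tested in NK cells.

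In the GADD45 family and its kinase partners 3 of 10 tested genes rose and 1 fell. Gadd45g, a paralogue of Gadd45b, was at 65.4 to 94.5 CPM in tumour-bearing spleens and at 127 to 152 CPM in tumours, a log2 fold change of 0.81 (edgeR adjusted p = 0.000177). Gadd45a rose by 0.66 (edgeR adjusted p = 0.0221), a call lost in 4 of 20 alternatives, 3 of which left out tumour-bearing replicate 4, tumour replicate 1 or tumour replicate 4 (adjusted p from 0.0135 to 0.113 over all 20). Map2k3, a kinase that activates p38, rose by 1.47 (edgeR adjusted p = 1.99e-07), while its relatives Map2k4, Map2k6 and Map2k7 did not pass the test (0.25, -0.70 and 0.06). Gadd45gip1, a mitochondrial protein that binds GADD45, fell by 1.28 on the log2 scale (edgeR adjusted p = 0.00416).

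Of the other Polo-like kinases only Plk1 and Plk4, which act in mitosis and in centriole duplication, could be tested. Neither was called by edgeR or DESeq2 from tumour-bearing spleens to tumours, and 1 of them had an unadjusted p under 0.05. Plk1 had a log2 fold change of -1.06 (edgeR adjusted p = 0.0783) and Plk4 one of 0.54 (edgeR adjusted p = 0.216). Plk1 had 1 to 12 counts in the tumour libraries and 0 to 12 in the healthy ones, so its levels are poorly fixed. Like Plk3, both were higher in tumour-bearing than in healthy spleens without overlap, as were 6.52% of all genes. Their log2 fold changes there were 1.71 for Plk1 and 0.93 for Plk4, and neither was called (edgeR adjusted p = 0.127 and 0.388). Against healthy spleens Plk4 was higher in tumours, by 1.47 (edgeR adjusted p = 0.00927, lost in 2 of 20 alternatives).

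Csrnp2 was the one testable relative of Csrnp1 and rose with a log2 fold change of 2.28 (SE 0.419, edgeR adjusted p = 0.000371). Its tumour levels were 6.56 to 13.04 CPM, and its spleen levels rest on 1 to 6 counts per library.

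In the BTG/Tob family and its deadenylase partners 5 of 10 tested genes rose and 1 fell. Btg1, the closest paralogue of Btg2, was at 6.51 to 9.91 CPM in tumour-bearing spleens and at 49.4 to 62.3 CPM in tumours, a log2 fold change of 2.78 (SE 0.258, edgeR adjusted p = 9.95e-08). Tob2 went from 82.3 to 99.1 CPM to 305 to 387 CPM (1.94, edgeR adjusted p = 6.32e-10) and Tob1 from 22.4 to 60.3 CPM to 107 to 145 CPM (1.49, edgeR adjusted p = 0.000338). The other 2 risers were partners: Pabpc1, the poly(A) binding protein, by 0.76, and Cnot7, a catalytic subunit, by 0.70. The call of Cnot7 was lost in 8 of 20 alternatives (adjusted p from 0.00957 to 0.173). Cnot3, a scaffold subunit, fell by 0.62 on the log2 scale (edgeR adjusted p = 0.00242), and Cnot2, Cnot6, Cnot6l and Cnot8 did not pass the test.

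All 3 other tested genes on the IER list, which share the IER name with Ier5l, rose. Ier3 was at 4.57 to 12.8 CPM in tumour-bearing spleens and at 31.1 to 42.7 CPM in tumours (1.83, edgeR adjusted p = 1.55e-05). Ier2 went from 332 to 533 CPM to 536 to 837 CPM (0.81, edgeR adjusted p = 0.00302). Ier5, which has 2 to 18 counts per NK library, had a log2 fold change of 1.27 (edgeR adjusted p = 0.0453), and its call was lost in 10 of 19 alternatives (adjusted p from 0.0022 to 0.308).

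**Figure D2:**
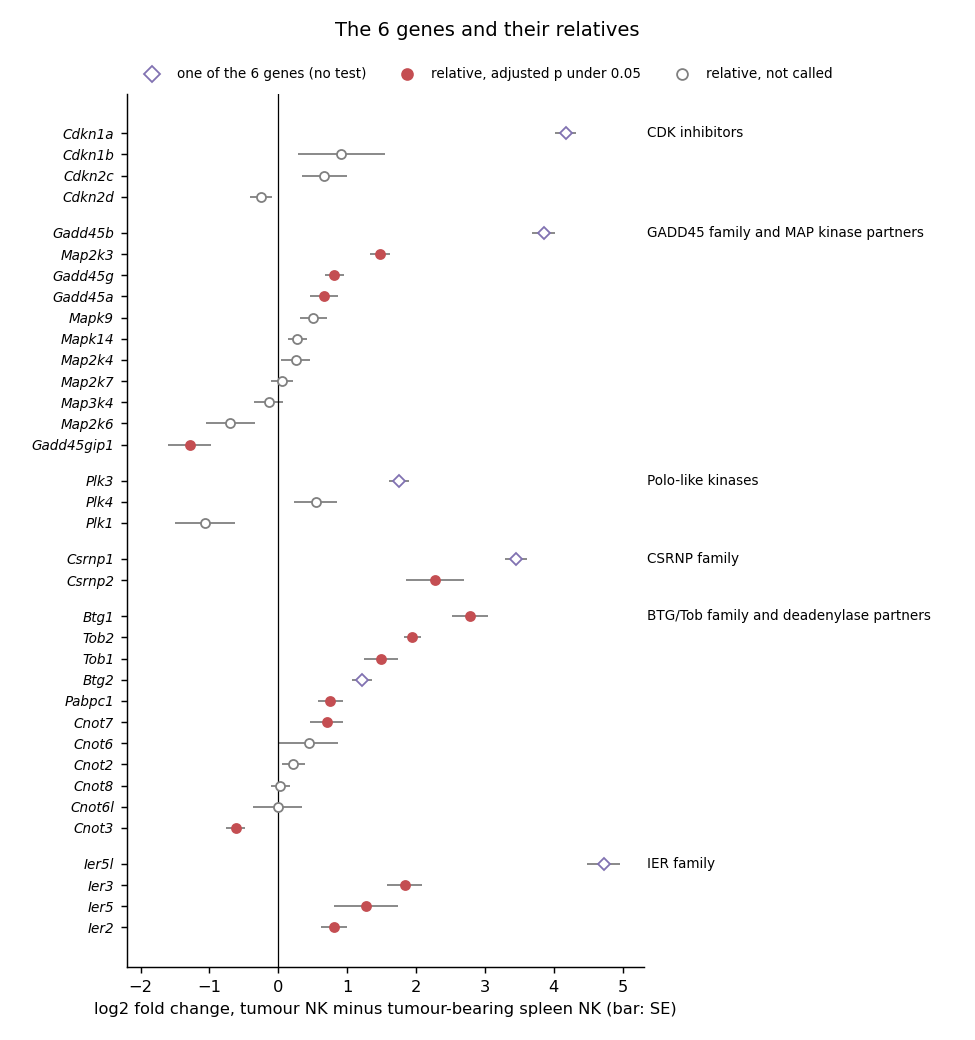
Log2 fold change from tumour-bearing spleen NK to tumour NK for the 6 genes (diamonds, no test) and their tested relatives (circles, filled where the edgeR adjusted p was under 0.05), with bars for 1 SE. Ier5l, Cdkn1a, Gadd45b, Csrnp1 and Plk3 lie above every other tested gene of their own family list, and Btg2 (1.21) lies under Btg1, Tob2 and Tob1. The 6 genes were chosen by comparisons of tumours with spleens, so nothing is read from their place above relatives.

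Among targets of p53 other than the 6 genes, most did not pass the test. Cdkn1a, Btg2 and Plk3 are on the p53 pathway list, and of its other 29 genes 22 could be tested. From tumour-bearing spleens to tumours 3 rose, 1 fell and 18 did not pass, with a median log2 fold change of 0.097; over all genes 15.8% rose and 13.2% fell. The risers were Fas, a death receptor (1.47, edgeR adjusted p = 0.00188), Sesn2, a stress-induced brake on mTORC1 (0.97, edgeR adjusted p = 0.0355) and Gadd45a. The call of Sesn2 was lost in 8 of 20 alternatives (adjusted p from 0.00953 to 0.184). Ephx1, an epoxide hydrolase, fell by 2.22 on the log2 scale (edgeR adjusted p = 9.93e-07). Without tumour replicate 1, or without tumour replicate 4, only 2 genes of the list were called. Mdm2, the p53-induced ligase that removes p53, was at 102 to 128 CPM in tumour-bearing spleens and at 111 to 130.3 CPM in tumours. Trp53 itself, Ccng1 and Bax had log2 fold changes of 0.12, -0.18 and -0.11 and did not pass the test; these 4 genes were singled out after their values were seen. Against healthy spleens 2 of the 22 genes rose and 3 fell, beside 16.5% and 14% of all genes, and without healthy replicate 2, or without tumour replicate 4, the list had 2 and 3 called genes. Among those that fell was Rrm2b, a ribonucleotide reductase subunit (-1.12, edgeR adjusted p = 0.0355, lost in 6 of 20 alternatives).

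Genes that drive, restrain or mark the cell cycle went both ways from tumour-bearing spleens to tumours. Of 17 tested cyclins, CDKs, pocket proteins and proliferation markers, 2 rose, 5 fell and 10 did not pass, with a median log2 fold change of -0.44, while over all genes 15.8% rose and 13.2% fell. E2f2, a factor for S-phase genes, fell by 1.67 on the log2 scale (edgeR adjusted p = 1.01e-05), from 45.0 to 65.9 CPM in tumour-bearing spleens to 10.1 to 19.8 CPM in tumours. Ccnd3, the cyclin D of lymphocytes, fell by 0.82 (edgeR adjusted p = 0.000147) and Ccne1 by 0.84 (edgeR adjusted p = 0.0332, lost in 7 of 20 alternatives). Cdk6, a kinase that pairs with D cyclins, rose by 1.54 (edgeR adjusted p = 3.31e-05), and Pcna, the replication clamp, by 0.42 (edgeR adjusted p = 0.0139). The call of Pcna was lost in 3 of 20 alternatives, 1 of which left out tumour replicate 2, and those of Ccnd2 and Cdk4, the other 2 genes that fell, were lost in 3 of 20 each. Mki67 and Top2a, which mark dividing cells, had log2 fold changes of -0.48 and -0.05 and did not pass the test.

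Against healthy spleens 7 of the 17 were higher in tumours and 2 lower, with a median log2 fold change of 0.30, beside 16.5% and 14% of all genes. Of these 9 calls, 7 were lost in at least 1 alternative: Ccnb2 in 11 of 20, Ccnd3 in 5 of 20, E2f1 in 3 of 19, Mki67 in 3 of 20, Ccna2 in 2 of 19, E2f2 in 2 of 20 and Top2a in 1 of 20. Top2a was at 18.7 to 29.3 CPM in healthy spleens, 55.3 to 71.6 CPM in tumour-bearing spleens and 44.9 to 76.4 CPM in tumours, and rose from healthy spleens to tumours by 1.39 (edgeR adjusted p = 9.47e-05). Mki67 was at 13.9 to 15.5 CPM, 36.2 to 51.8 CPM and 17.1 to 47.5 CPM in the same order of groups. Cdk6 had the largest log2 fold change of the called genes on the list, 2.55 (edgeR adjusted p = 1.61e-06).

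The integrated stress response slows translation and induces Atf4 targets. On its list 9 of 13 tested genes rose from tumour-bearing spleens to tumours and 0 fell, with a median of 0.97, beside 15.8% and 13.2% of all genes. The list is wider than that response. Its risers included Xbp1, Hspa5 and Herpud1 (0.56, 1.34 and 0.54), genes of the response to unfolded proteins in the endoplasmic reticulum. Atf3, a stress-induced transcription factor, was at 2.89 to 7.26 CPM in tumour-bearing spleens and at 37.3 to 71.0 CPM in tumours (3.47, edgeR adjusted p = 9.47e-08). Ppp1r15a, also known as Gadd34, which restarts translation, was at 57.1 to 115 CPM and at 307 to 377 CPM (2.24, edgeR adjusted p = 3.45e-08). Ddit4, an inhibitor of mTORC1, rose by 1.43 (edgeR adjusted p = 0.00191). Sesn2, named above, was also among the risers, with its call lost in 8 of 20 alternatives. Ddit3 had a log2 fold change of 0.24 (edgeR adjusted p = 0.295), and Ddit3, Eif2ak1, Eif2ak4 and Eif2s1 did not pass the test. Asns was under the filter, and Trib3, Chac1 and Nupr1 had no row in the NK table. Against healthy spleens 9 of 13 rose as well (16.5% of all genes), led by Atf3, Ppp1r15a and Hspa5.

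Immediate early and heat-shock genes known to respond to stimulation and to tissue dissociation rose in nearly all cases. Of 19 such genes 17 rose from tumour-bearing spleens to tumours and 0 fell, with a median log2 fold change of 1.84 (15.8% of all genes rose), and only Hspa8 and Dnajb1 did not pass the test. Fosb, a subunit of AP-1, was at 2.17 to 22.6 CPM in tumour-bearing spleens and at 425 to 545 CPM in tumours (5.17, edgeR adjusted p = 3.39e-06). Hspa1a, an inducible chaperone, was at 0 to 3.81 CPM and at 25.7 to 46.7 CPM (4.40, edgeR adjusted p = 3.21e-05), and had 0 counts in all 3 healthy libraries. Every tumour was digested at 37 °C and no spleen was, so the part of dissociation in this list and in the 6 genes cannot be told apart from that of the tumour.

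Of 18 tested TGF-beta and NF-kB regulators 14 rose and 2 fell (median 1.31), beside 15.8% and 13.2% of all genes. The list pools signal carriers with feedback regulators and also holds Klf2, so its counts give no direction for TGF-beta or NF-kB signalling. Whether these signals act on the levels of Cdkn1a or Gadd45b was not tested. Tnfaip3 and Nfkbiz, feedback regulators of NF-kB, rose by 3.53 (edgeR adjusted p = 0.00179) and 3.23 (edgeR adjusted p = 0.00116), and Nfkbia by 2.77 (edgeR adjusted p = 2.08e-11). Nfkbia was at 312 to 378 CPM in tumour-bearing spleens and at 2296 to 2527 CPM in tumours. Klf2, a quiescence and homing factor of lymphocytes, fell by 1.16 on the log2 scale (edgeR adjusted p = 3.36e-06), and Smad3, a TGF-beta signal carrier, by 0.38 (edgeR adjusted p = 0.0231, lost in 3 of 20 alternatives, among them those without tumour-bearing replicate 3 and without tumour replicate 2). Tgfb1, Tgfbr2 and Smad7 were among the risers.

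**Figure D3:**
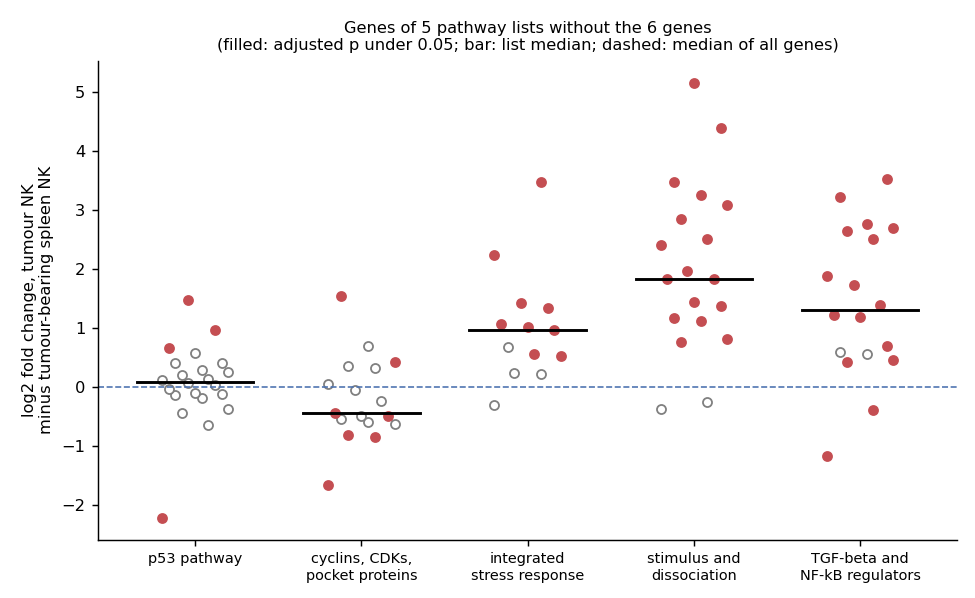
Log2 fold change from tumour-bearing spleen NK to tumour NK for each tested gene of 5 lists without the 6 genes (points, filled where the edgeR adjusted p was under 0.05; black bar, list median; dashed line, median of all genes). The list medians are 0.097, -0.44, 0.97, 1.84 and 1.31 from left to right.

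Between the spleen groups few of these genes passed the test. Of the 29 tested relatives edgeR called 0, with 5 at an unadjusted p under 0.05 and 0 in DESeq2, beside 1.58% of all genes called. Called genes in the lists were 9, all higher in tumour-bearing mice: 6 of 17 cell-cycle genes (Ccna2, E2f1, Ccnb2, Mki67, Top2a and Ccnd2), the immediate early genes Egr1 (1.97, edgeR adjusted p = 0.001) and Jun (1.64, edgeR adjusted p = 0.00337), and Ephx1 (1.12, edgeR adjusted p = 0.0163). Mki67 rose by 1.52 (edgeR adjusted p = 0.0082) and Top2a by 1.44 (edgeR adjusted p = 0.00111). Among the 9, only the call of Egr1 held in all 21 alternatives. Cdkn1a, Gadd45b, Btg2 and Ier5l had log2 fold changes of 0.19, 0.27, 0.04 and -0.06 here, each with overlapping libraries, beside 1.97 for Plk3. Without healthy replicate 2, 42 genes were called in this comparison in place of 134.

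Among themselves the 6 genes varied together over the 11 NK libraries, and less uniformly around their group means. Pearson r of log2 CPM over the 11 libraries ran from 0.824 (Plk3 with Btg2) to 0.994 (Cdkn1a with Gadd45b), and mostly measures the step between 4 tumour and 7 spleen libraries. After subtraction of group means r ran from -0.677 (Plk3 with Csrnp1) to 0.653 (Csrnp1 with Btg2), over the same 11 libraries. Plk3 had a negative r with each of the other 5 genes within groups. These values share library depth and scaling and are given as a description.

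The genes most like each of the 6 over the 11 libraries were mostly other genes with a step between spleen and tumour. For Cdkn1a they were Nfkbie (r = 0.995), Nfkbia (0.994) and Nrp1 (0.994), and for Gadd45b they were Polg2 (0.996), Snhg12 (0.993) and Socs3 (0.993). For Csrnp1 they were Polg2 (0.991), Tgif2 (0.991) and Tob2 (0.989), for Btg2 they were Gabarapl1 (0.993), Med10 (0.987) and Frmd4b (0.98), and for Ier5l they were Fosb (0.991), Socs3 (0.99) and Pnrc1 (0.989). Plk3 had other neighbours, Pim2 (0.985), Dusp2 (0.98) and Tnfrsf9 (0.98), whose log2 fold changes were 1.01, 0.99 and 1.91 between the spleen groups and 1.39, 0.79 and 1.56 from tumour-bearing spleens to tumours. By deviations from group means the nearest genes were Pdhb for Cdkn1a (r = 0.921), Xndc1 for Gadd45b (0.943), Nmb for Plk3 (0.932), Vopp1 for Csrnp1 (0.932), Fntb for Btg2 (0.953) and Il18rap for Ier5l (0.924). Fosb was near Ier5l by this measure too (0.911). With a smaller and a larger prior count for the log scale, 29 and 30 of the 36 genes so ranked came up again.

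All 6 genes were also detected in each sCAF library. Their levels there are CPM on library totals from a separate table, and no comparison with NK cells was tested. Fibroblast markers summed to 3929 to 6393 CPM with all 12 listed, most of it Fn1 (2371 to 3491 CPM), while Col1a1 was at 46.2 to 81.8 CPM and Lum at 0.759 to 1.502 CPM. Epithelial markers summed to 3276 to 4137 CPM, led by Krt18 (2250 to 2993 CPM) and Krt8 (691 to 826 CPM), although EPCAM-positive and GFP-positive cells had been gated out, and Krt5 was at 0. Pdpn, the gene of the negative gate, was at 0.897 to 3.75 CPM. The part of epithelial transcripts in the levels below was not tested.

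Csrnp1 was at 994, 608 and 710.3 CPM in sCAF replicates 1 to 3, beside 527 ± 31.0 CPM in tumour NK on library totals (SD, n = 4). Gadd45b was at 547, 359.6 and 458 CPM, beside 835 ± 152 CPM in tumour NK. Plk3 was at 240.3, 205 and 295 CPM, beside 107 ± 7.04 CPM in tumour NK. Replicate 1 was the highest of the 3 for Csrnp1 and Gadd45b and replicate 3 for Plk3.

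Cdkn1a was at 85.6, 71.3 and 65.3 CPM in sCAFs, beside 447 ± 78.9 CPM in tumour NK. Btg2 was at 104, 91.8 and 200.5 CPM, with replicate 3 well above the others, beside 680.5 ± 86.2 CPM in tumour NK. Ier5l was at 95.9, 140.4 and 143 CPM, beside 167 ± 24.0 CPM in tumour NK. Replicate 1 was the highest for Cdkn1a and the lowest for Ier5l.

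**Figure D4:**
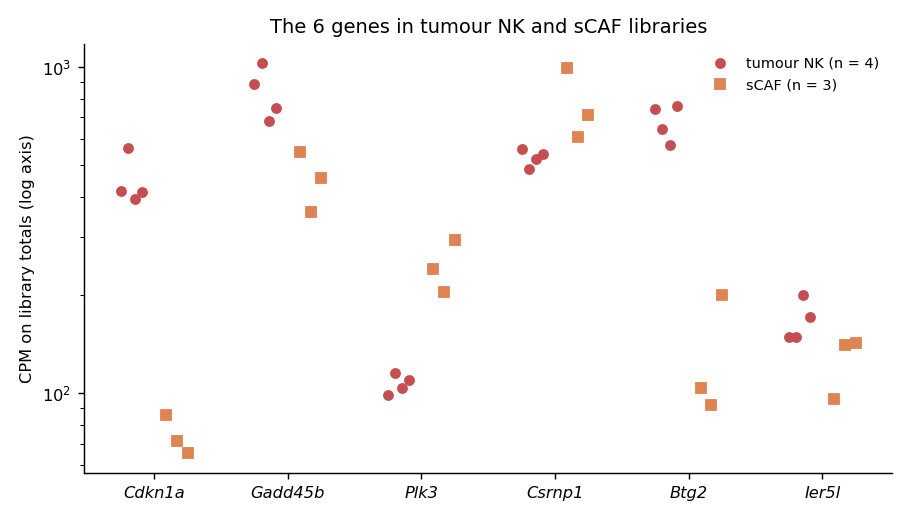
Level of each of the 6 genes in the 4 tumour NK libraries (circles) and 3 sCAF libraries (squares), in CPM on library totals with a log axis. The tables were made separately, so the gap between symbols was not tested; within sCAFs Btg2 ran from 91.8 to 200.5 CPM and Csrnp1 from 608 to 994 CPM.

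Among relatives and stress genes in sCAFs, Ier3 was at 4102 to 4570 CPM, Ier2 was at 1162 to 1576 CPM and the GADD45 paralogues Gadd45a and Gadd45g were at 278 to 583 CPM and 210.2 to 474 CPM. Atf3 was at 2023 to 2159 CPM, Fosb at 1371 to 2586 CPM and Fos at 2173 to 2899 CPM. Of the CDK inhibitors Cdkn2c was at 41.7 to 47.0 CPM, Cdkn1b at 4.50 to 15.2 CPM and Cdkn2a at 0 in all 3 libraries, which allows up to 2.28 CPM in the shallowest. Plk2 was at 29.6 to 66.8 CPM and Plk1 at 42.8 to 72.1 CPM. Ccnd1, the cyclin D of many adherent cells, was at 846 to 1597 CPM, and Mdm2 at 94.8 to 109 CPM.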

How the data were processed

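Bulk 3′ end mRNA libraries of sorted cells were analysed: 11 of NK cells (3 healthy spleen, 4 tumour-bearing spleen, 4 tumour) and 3 of sCAFs. The authors deposited raw counts per gene in a table for each cell type. Per the submitters' processing notes, bcl2fastq, STAR 2.4.2a, HTSeq and the mm10 build were used, with no role or order stated, and whether counting used strand is not given in the sources used here. Groups were taken from the labels.

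NK counts were filtered with filterByExpr, which left 8471 genes, scaled by TMM and fitted over all 3 groups with edgeR 4.0.16 (quasi-likelihood test, limma 3.58.1, R 4.3.3). P-values were adjusted by Benjamini-Hochberg over all 8471 genes, with a threshold of 0.05. Fold changes are log2 and r used log2 CPM with a prior count of 2. DESeq2 1.42.0 was an alternative. The procedure was tested on simulated data. sCAF levels are CPM on library totals, without a test. The limit for a count of 0 was 3 counts. The precision is limited by totals of 559688 to 1966963 counts in NK libraries.

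The 6 genes and the gene lists were chosen with earlier results of these data known, and the 6 genes get no p. The named genes were the 6 genes, all genes of their family lists, the called genes of each other list that ranked in the top 3 by rise or by fall in a comparison and, per gene, the 3 most alike by either r. Mki67, Top2a, Ccnd2, Hspa8, Dnajb1, Tgfb1, Tgfbr2, Smad7, Mdm2, Trp53, Ccng1, Bax, Cx3cr1 and the genes named only in sCAFs lay outside that rule and were chosen after their values were seen. So were Ddit3, Eif2ak1, Eif2ak4, Eif2s1, Asns, Trib3, Chac1 and Nupr1. The NK and sCAF tables were not compared by a test.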

Additional observations from a re-analysis of the deposited data

Results flagged for a closer look

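In 238 groups of 4 libraries (tumour-bearing spleens or tumours, for the 6 genes and the tested list genes), 18 had a library that stood apart by the size of its gap to the nearest other library relative to the whole range. Chance sets apart about 1 in 20 such groups. Of the 6 genes only Cdkn1a was among them, with 582.5 CPM in tumour replicate 2 against 434 to 453 CPM in the other tumours; without that library its log2 fold change from tumour-bearing spleens was 4.07.

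Among the relatives, the libraries apart in tumours were replicate 4 for Map2k6 at 11.41 CPM, replicate 1 for Csrnp2 at 6.558 CPM and replicate 2 for Tob1 at 144.9 CPM. In tumour-bearing spleens they were replicate 3 for Mapk14 at 99.34 CPM, replicate 3 for Ier2 at 533.2 CPM and replicate 1 for Ier3 at 4.573 CPM.

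On the pathway lists, tumour replicate 3 stood apart for Sesn2 at 10.82 CPM, Xpc at 7.816 CPM, Cdk2 at 3.006 CPM and Hspa8 at 739 CPM. Tumour replicate 2 stood apart for Fbxw7 at 21.74 CPM and Eif2ak4 at 18.84 CPM. In tumour-bearing spleens, replicate 3 stood apart for Ppp1r15a at 114.8 CPM and Smad3 at 173.5 CPM, replicate 1 for Ddb2 at 34.3 CPM and Rel at 25.92 CPM, and replicate 2 for Ccnd2 at 611.8 CPM.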

How the results depend on the processing

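All log2 fold changes of the 6 genes from either spleen group to tumours kept their sign under the alternatives run. Between the spleen groups those of Btg2 (-0.08 to 0.30) and Ier5l (-0.33 to 0.47) did not. The balance of higher and lower calls turned with upper-quartile factors, and on the p53 list against healthy spleens it turned from 2 higher and 3 lower to 3 and 2 without tumour replicate 2. Leaving out 1 library at a time gave a median log2 fold change of the 6 genes of 3.57 to 3.80 from tumour-bearing spleens to tumours, 3.92 to 4.08 from healthy spleens to tumours and 0.16 to 0.39 between the spleen groups. Genes called were then 1869 to 2826, 1838 to 2971 and 42 to 142 in the same order, p53 list genes 2 to 4, 2 to 7 and 0 to 2, genes of all lists 53 to 64, 55 to 67 and 3 to 11, and relatives 11 to 15, 12 to 14 and 0 to 1. With upper-quartile factors the medians were 3.55 and 3.92, and 41.6% and 42.4% of calls were higher in tumours (1091 against 1530, and 1154 against 1569) in place of 54.5% and 54.2%, with medians over all genes of -0.098 and -0.084. With only tumour-bearing replicates 1 and 2 and healthy replicate 1 as spleens, the medians were 3.76, 4.22 and 0.38, 1471 genes were called from healthy spleens to tumours (1 on the p53 list, 9 relatives) and 38 between the spleens (0 on the p53 list, 2 on all lists). With only the other spleens the medians were 3.52 and 3.92, and 9 p53 list genes were called from healthy spleens to tumours. With the spleen side as a term, an alternative chosen after seeing the data, 691 genes were called between the spleen groups, 3 on the p53 list, 4 relatives and 24 on all lists. Of the called list genes 49 of 62, 41 of 66 and 1 of 9 were called under every alternative. The cause of these differences was not tested.

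The labels number replicates in each group. Same-numbered tumour-bearing spleen and tumour libraries correlated in their deviations at -0.047, 0.288, 0.002 and 0.211. Numbers 2 and 4 correlated best with their own number and the others did not. Healthy and tumour-bearing spleens of the same number, which cannot share a mouse, correlated at 0.501, -0.353 and 0.348. This check therefore cannot tell whether a spleen and a tumour came from the same mouse. The numbers were not taken as pairs in the main fit. With the replicate number as a block, 2626, 2648 and 115 genes were called, the medians of the 6 genes were 3.67, 4.06 and 0.29, and 3 p53 list genes were called from healthy spleens to tumours in place of 5. Levels of Ier5l in spleens and of Plk3 in healthy spleens rest on few counts, which limits their precision.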
